A study of Mus musculus with 4 samples.

Results

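The 9 genes described here encode enzymes of haem synthesis (Alas1, Alas2, Alad, Uros, Urod, Cpox, Ppox and Fech) and the mitochondrial glycine carrier that supplies the pathway (Slc25a38). They were chosen by name, as rows of a table of 23240 genes, and all 9 were in it. RNA was sequenced from mouse leukaemic bone marrow cells labelled as RUNX1-FLT3ITD acute myeloid leukaemia, where FLT3-ITD denotes an activating duplication within the FLT3 receptor. The sort kept cells with GFP and BFP that lacked CD11b and Gr1, which are surface proteins of mature myeloid cells. All cells were cultured for 22 h with FLT3L, SCF, IL3 and IL11, and received either 4OHT (4-hydroxytamoxifen, the active metabolite of tamoxifen) at 200 nM or an equal volume of its solvent ethanol (EtOH). The 4 libraries were 1 EtOH and 1 4OHT library from B6.Runx1-delta/delta cells (replicate 1), and 1 of each from B6.Runx1-delta/+ cells (replicate 2). Both genotypes carry at least 1 altered Runx1 allele, so no group with intact Runx1 was compared. The labels name neither the target of 4OHT nor whether a pair of libraries came from 1 mouse, so p-values measure the spread between these samples only. With 1 library per genotype and treatment, that spread mixes technical variation with any difference between the genotypes in their response to 4OHT.

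Haem is built in a chain that starts and ends in mitochondria. Glycine and succinyl-CoA are condensed to aminolevulinate, which is joined, closed into a ring and trimmed in the cytosol, and the ring is finally oxidised and loaded with iron back in mitochondria. Developing red cells make most of the body's haem, for haemoglobin, and use their own enzyme for the entry step, Alas2. Other cells use Alas1, which free haem represses. GATA1, a transcription factor of red cell development, is known to bind and activate several genes of the chain.

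Sequence just upstream of the annotated starts is shown for Alas2, Cpox and Uros, the members whose windows held a GATA motif, and for Alas1, the other entry enzyme, which had none. The windows cover 250 bases before a start on GRCm38.p6 (RefSeq) and were matched by gene symbol; the study used another build, mm9. Capitals mark AGATAA or TGATAA on either strand. Alas2 lies on the plus strand at chrX:150547167-150547416, Cpox on the plus strand at chr16:58669958-58670207, Uros on the minus strand at chr7:133702501-133702750 (the downstream of its 2 annotated starts) and Alas1 on the minus strand at chr9:106247955-106248204 (the upstream of 2).
Alas2: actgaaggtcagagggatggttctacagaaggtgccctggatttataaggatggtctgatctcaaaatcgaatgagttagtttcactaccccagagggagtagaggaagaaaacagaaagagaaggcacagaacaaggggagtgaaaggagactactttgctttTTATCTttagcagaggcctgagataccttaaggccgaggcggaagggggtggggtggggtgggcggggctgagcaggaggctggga
Cpox: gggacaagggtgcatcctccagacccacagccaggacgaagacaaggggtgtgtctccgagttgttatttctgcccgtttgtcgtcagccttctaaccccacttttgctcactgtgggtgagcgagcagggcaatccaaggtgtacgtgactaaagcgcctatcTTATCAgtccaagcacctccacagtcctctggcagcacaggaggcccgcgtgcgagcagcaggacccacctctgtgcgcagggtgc
Uros: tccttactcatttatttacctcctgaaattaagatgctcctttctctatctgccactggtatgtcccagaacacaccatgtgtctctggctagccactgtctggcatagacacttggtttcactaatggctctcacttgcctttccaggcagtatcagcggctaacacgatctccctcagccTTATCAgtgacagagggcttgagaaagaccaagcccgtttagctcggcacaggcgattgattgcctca
Alas1: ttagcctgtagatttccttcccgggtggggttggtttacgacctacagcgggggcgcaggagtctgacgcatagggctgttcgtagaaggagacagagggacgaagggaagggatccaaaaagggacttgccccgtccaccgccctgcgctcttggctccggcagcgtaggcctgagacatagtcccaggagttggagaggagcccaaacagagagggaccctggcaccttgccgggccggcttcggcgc
The match began 86 bases before the start in Alas2, 86 bases before it in Cpox and 68 bases before it in Uros. Of the 8 members with a window in the table, 3 held this motif, in 3 of 11 windows (27.3%), against 16.6% of all 32851 windows. The CACCC-type motif CCNCNCCC, which resembles the site of the erythroid factor KLF1, was in windows of 5 of the 8 members (7 of 11 windows, 63.6%) and in 45.9% of all windows. The RUNX motifs TGTGGT and TGCGGT were found for Urod alone (1 of 11 windows, 9.09%, against 18.6%). The NF-E2 type motif TGANTCA was in 0 of 11 windows, against 6.75%. Motifs were searched on both strands, and matches of the CACCC type can overlap each other. A match is a string of letters and not a measured binding site.

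RPKM, a read count divided by gene length and by library depth, puts genes of different length on 1 scale. The depth recovered from steps in the RPKM values was 33.7 to 34.6 M mapped reads for EtOH and 36.7 to 39.4 M for 4OHT. The members were covered by 333 reads (Alas1 in EtOH of Runx1-delta/delta) to 87830 reads (Cpox in the same library), so counting error was at most 5.48% of a value. Among markers of other cells, the sorted-out CD11b gene Itgam stood at 0.168 to 0.358 RPKM. The B cell gene Pax5 and the T cell gene Cd3e were listed at 0 in all 4 libraries. Of 4 tested neutrophil, monocyte and T or NK genes, 0 were called for 4OHT in limma (S100a8, S100a9, Cd68 and Lck, adjusted p 0.122 to 0.906), against 32.4% of all tested genes. A count over 4 genes is too small to set apart from that share. On that neutrophil list S100a8 had 9.39 to 30.5 RPKM and S100a9 had 5.47 to 12.4 RPKM. Of the 7 progenitor and blast markers, Kit (0.0781 to 1.61 RPKM), Cd34 (0.0484 to 0.395 RPKM), Mpo (0.303 to 0.556 RPKM) and Elane (0.165 to 0.484 RPKM) were low. Flt3 (12.6 to 46.3 RPKM), Myb (17.0 to 99.2 RPKM) and Cebpa (1.08 to 10.3 RPKM) were higher. Summed over 12 erythroid markers, the level was 17041 and 6228 RPKM in EtOH and 2984 and 1565 RPKM in 4OHT (Runx1-delta/delta first in each pair). The globin genes Hbb-b1 and Hba-a1 made up most of each sum. In the same order, Hbb-b1 had 8962 and 3870 RPKM in EtOH and 423 and 349 in 4OHT. Hba-a1 had 5277 and 922 RPKM in EtOH and 1971 and 753 in 4OHT.

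Haem synthesis genes were lower in the 4OHT libraries. In limma, with genotype as a term and Benjamini-Hochberg adjustment over the 9595 genes whose mean reached 1 RPKM, 6 of the 9 members fell (Alas2, Fech, Cpox, Uros, Ppox and Slc25a38) and 0 rose. All 9 passed the filter on low values. Of all genes tested, 32.4% were called, 10.2% lower and 22.2% higher. The median member changed by -1.29 on the log2(RPKM + 1) scale and the median tested gene by 0.16. Both EtOH libraries lay above both 4OHT libraries for 7 of the 9 members, against 16.9% of tested genes. Without the genotype term 1 of the 9 passed, Fech (limma adjusted p = 0.0349), against 2.43% of all tested genes in that fit. In bulk RNA, fewer cells of a type and less RNA per cell cannot be told apart.

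**Figure D1:**
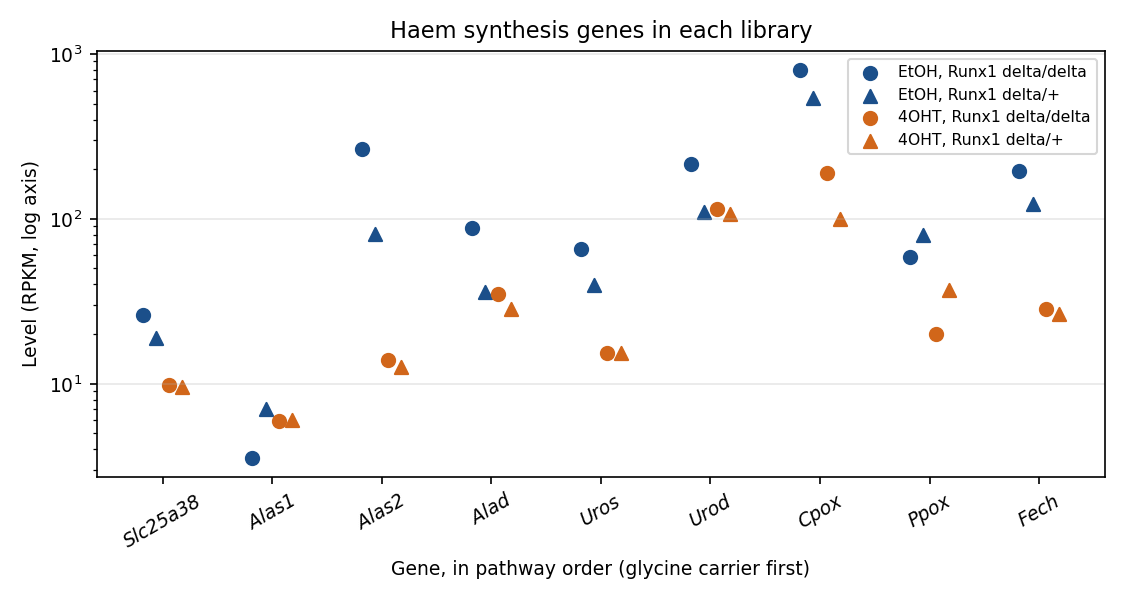
Level of each member in each of the 4 libraries in RPKM on a log axis, ordered along the pathway, with blue for EtOH, orange for 4OHT, circles for Runx1-delta/delta and triangles for Runx1-delta/+. The blue points lie above the orange ones for 7 genes, while those of Alas1 and Urod overlap.

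The supply of glycine came first. For Slc25a38, which carries glycine across the inner mitochondrial membrane, Runx1-delta/delta cells gave 25.9 RPKM under EtOH against 9.89 under 4OHT, and Runx1-delta/+ cells gave 18.9 against 9.60. The 4OHT libraries were nearly equal and both lay below the EtOH libraries. It was lower in both pairs and fell by 1.11 on the log2(RPKM + 1) scale (SE 0.16; limma adjusted p = 0.00836). The plasma membrane glycine transporter gene Slc6a9 also fell, to 20.1 RPKM where EtOH had 50.4 and to 19.1 where EtOH had 32.7 (limma adjusted p = 0.0133).

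Of the 2 entry enzymes, Alas2 fell and Alas1 was not called. Alas2, the red cell enzyme, reached 265 RPKM under EtOH against 13.9 under 4OHT in Runx1-delta/delta cells, and 80.9 against 12.7 in Runx1-delta/+ cells. The EtOH libraries were far apart, and the 4OHT libraries close together and well below both. With 4OHT the level was 19.1-fold and 6.36-fold lower, Runx1-delta/delta first, and the fitted log2 change was -3.37 (SE 0.37, limma adjusted p = 0.00511). This was the largest change among the 9. Its exons share 311 of 2037 annotated bases with Apex2 on the opposite strand (GENCODE vM21), and whether reads were counted by strand was not stated in the labels or headers. Apex2 stood between 7.37 and 11.6 RPKM in the 4 libraries, below Alas2 in each.

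Alas1, the enzyme of other cells, gave 3.56 RPKM under EtOH against 5.98 under 4OHT in Runx1-delta/delta cells, and 7.02 against 6.07 in Runx1-delta/+ cells. EtOH and 4OHT libraries overlapped, and 1 pair went up and the other down. It did not pass the test (log2 change 0.22, SE 0.22, 95% interval -0.35 to 0.78, limma adjusted p = 0.490). An antisense gene shares 465 of its 3959 annotated exon bases. Alas2 exceeded Alas1 74.3-fold and 11.5-fold in EtOH (Runx1-delta/delta first), and 2.32-fold and 2.10-fold in 4OHT. Alas2 therefore stayed the more abundant entry enzyme transcript in each library, by a margin that was much smaller in 4OHT.

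Among the 3 enzymes of the cytosol, Uros fell, and Alad and Urod were not called. Alad, which joins aminolevulinate molecules into porphobilinogen, gave 87.9 RPKM under EtOH against 34.9 under 4OHT in Runx1-delta/delta cells, and 36.0 against 28.4 in Runx1-delta/+ cells. The high value was that of the Runx1-delta/delta EtOH library, and the other 3 lay within a narrow range. The change of -0.82 on the log2 scale missed the threshold (SE 0.25, 95% interval -1.45 to -0.19, limma adjusted p = 0.0563) and passed it with median-ratio scaling (-1.02, limma adjusted p = 0.0478).

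Uros, which closes the chain of pyrroles into a ring, gave 65.2 RPKM under EtOH against 15.5 under 4OHT in Runx1-delta/delta cells, and 39.5 against 15.4 in Runx1-delta/+ cells. The 4OHT libraries were almost identical and below both EtOH libraries. The log2 change was -1.65 (SE 0.20; limma adjusted p = 0.00631), with levels 4.22-fold and 2.56-fold lower. Urod, which trims carboxyl groups from the ring, gave 215 RPKM under EtOH against 115 under 4OHT in Runx1-delta/delta cells, and 111 against 108 in Runx1-delta/+ cells. The Runx1-delta/delta EtOH library stood apart and the other 3 were close. No change was called (log2 change -0.47, SE 0.22, 95% interval -1.03 to 0.09, limma adjusted p = 0.159).

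The enzymes of the last steps, which work in or on mitochondria, all fell. Cpox, which makes protoporphyrinogen, gave 798 RPKM under EtOH against 189.7 under 4OHT in Runx1-delta/delta cells, and 542 against 99.4 in Runx1-delta/+ cells. Every EtOH value was far above every 4OHT value. It fell by 2.25 on the log2 scale (SE 0.14, limma adjusted p = 0.00183), the smallest adjusted p of the 9, by 4.21-fold and 5.45-fold within the pairs.

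Ppox, which oxidises the ring to protoporphyrin, gave 58.6 RPKM under EtOH against 19.9 under 4OHT in Runx1-delta/delta cells, and 79.3 against 37.3 in Runx1-delta/+ cells. Here the Runx1-delta/+ library was the higher within each treatment, and the treatments did not overlap. It fell by 1.29 on the log2 scale (SE 0.16, limma adjusted p = 0.00651). Fech, ferrochelatase, which inserts iron, gave 196 RPKM under EtOH against 28.6 under 4OHT in Runx1-delta/delta cells, and 122 against 26.6 in Runx1-delta/+ cells. Again the 4OHT libraries were close and far below both EtOH libraries. It fell by 2.45 on the log2 scale (SE 0.18, limma adjusted p = 0.00257), by 6.85-fold and 4.59-fold.

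**Figure D2:**
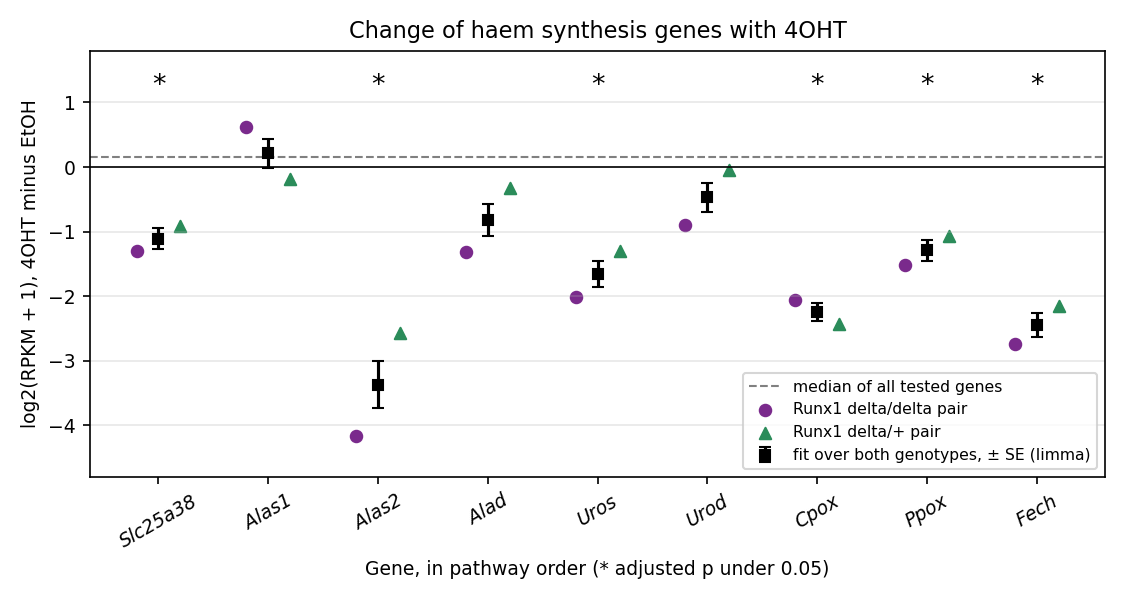
Change of each member on the log2(RPKM + 1) scale, 4OHT minus EtOH, as the limma estimate over both genotypes ± SE (black squares) and within each genotype (circles and triangles), with an asterisk at an adjusted p under 0.05 and a dashed line at the median of all tested genes, 0.16. Alas2 lies lowest at -3.37, and Alas1 is the member whose pairs lie on opposite sides of 0.

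Levels along the chain were far from even. In EtOH the order by level, from low to high, began with Alas1 (3.56 to 7.02 RPKM) and Slc25a38 (18.9 to 25.9 RPKM). Alad, Uros and Ppox followed with overlapping ranges, then Alas2, Urod and Fech with overlapping ranges, and Cpox stood apart at the top. The 2 sets were not fully separate, since the highest value of Alad (87.9 RPKM) exceeded the lowest of Alas2 (80.9 RPKM). In 4OHT the order was Alas1, Slc25a38, Alas2 and Uros, whose ranges did not overlap, then Ppox, Fech and Alad, whose ranges did, and Urod and Cpox at the top, which also overlapped. Alas2 had rank 2 and rank 4 of the 9 in the EtOH libraries and rank 7 in both 4OHT libraries. Cpox alone held 46.5% and 52.3% of the members' summed RPKM in EtOH, and 43.8% and 29.0% in 4OHT. The share of Urod, which was not called, was 12.5% and 10.7% in EtOH and 26.5% and 31.3% in 4OHT. The summed RPKM of the 9 was 1714 under EtOH against 433 under 4OHT in Runx1-delta/delta cells (3.96-fold lower) and 1037 against 343 in Runx1-delta/+ cells (3.02-fold lower).

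The same fit compares Runx1-delta/delta with Runx1-delta/+ cells, with treatment as a term. Of the 9 members 1 passed, Cpox, which was higher in Runx1-delta/delta (log2 difference 0.74, SE 0.14, higher in both treatments, limma adjusted p = 0.0356). Of all tested genes 11.6% were called, 4.68% higher in Runx1-delta/delta and 6.91% lower, so 1 of 9 is near the background. The call was lost with no filter on low values (limma adjusted p = 0.0892) and without the treatment term (limma adjusted p = 0.927). Ppox pointed the other way without passing (log2 difference -0.65, SE 0.16, limma adjusted p = 0.0608). Alas1 and Urod were the 2 members whose genotypes did not overlap, Alas1 lower and Urod higher in Runx1-delta/delta, against 38.4% of tested genes without overlap in either direction, and neither passed.

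The genotypes lay further apart in EtOH than in 4OHT for 7 members. In EtOH the higher level was at most 25% above the lower for 0 of the 9, against 47.2% of tested genes. Runx1-delta/delta was the higher for 7 members, all but Alas1 and Ppox, against 43.9% of tested genes. The ratio was 3.27 for Alas2, 2.44 for Alad and 1.94 for Urod, and 0.508 for Alas1. In 4OHT 7 of the 9 were within this 25%, against 49.8% of tested genes, among them Alas2 at a ratio of 1.09 and Fech at 1.07. Cpox (1.91) and Ppox (0.534) were the exceptions. Runx1-delta/delta was again the higher for 7 members, all but Alas1 and Ppox, against 49.6% of tested genes. The limit of 25% was chosen after the values were seen. The larger fall was in Runx1-delta/delta for 7 members, all but Alas1 and Cpox. How many of all tested genes fell more in Runx1-delta/delta, or had genotypes further apart in EtOH, was not counted. Neither of these counts of members therefore has a background here. The difference between the genotypes' responses leaves no residual degree of freedom and has no test here.

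**Figure D3:**
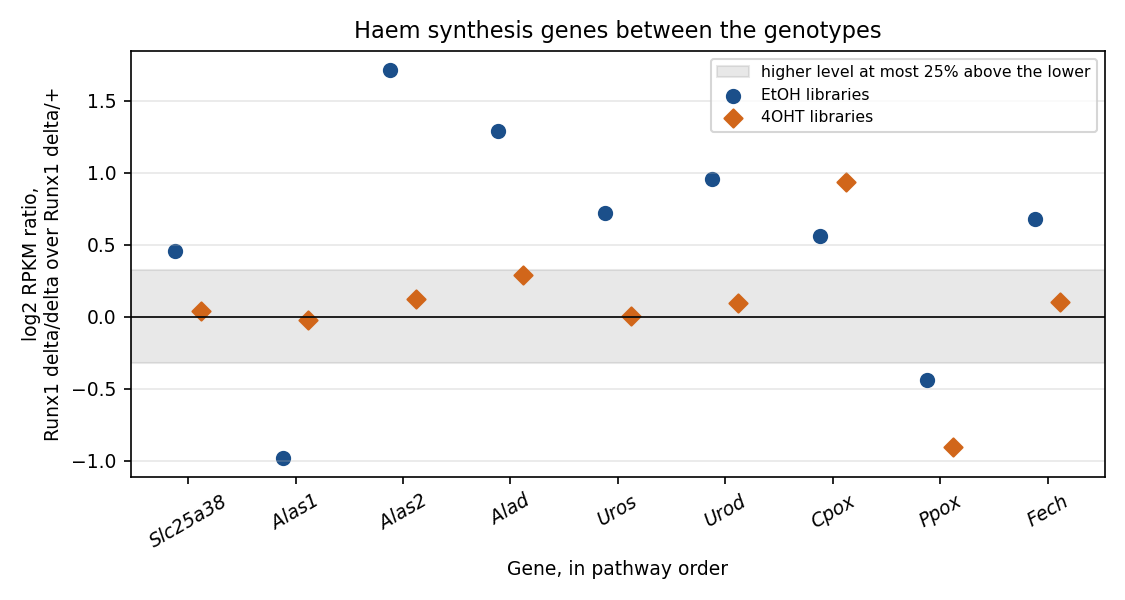
Ratio of Runx1-delta/delta to Runx1-delta/+ levels on a log2 axis for each member, in the EtOH libraries (blue circles) and in the 4OHT libraries (orange diamonds), with a grey band where the higher level is at most 25% above the lower. All 9 circles lie outside the band, while 7 diamonds lie within it and those of Cpox and Ppox do not.

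Other genes of haem handling moved both ways. Of 20 tested genes of porphyrin and haem transport, haem breakdown and haem sensing, 7 fell and 5 rose (10.2% and 22.2% of all tested genes), with a median log2 change of -0.24. With median-ratio scaling 7 fell and 3 rose. With no filter on low values 3 of 21 fell and 3 rose, against 13.3% of all genes called in that fit. Tmem14c, which brings protoporphyrinogen into the mitochondrial matrix, fell from 857 to 293 RPKM in the Runx1-delta/delta pair, and from 469 to 191 in the other (limma adjusted p = 0.00320). Eif2ak1, the kinase that slows translation when haem is scarce, had a log2 change of -1.20 (limma adjusted p = 0.00836). 2010011I20Rik, an older symbol of Fam210b, fell from 70.3 to 16.7 RPKM in the first pair and from 38.9 to 19.1 in the second (limma adjusted p = 0.0126). Mfsd7b, an older symbol of the haem exporter Flvcr1, rose from 2.38 to 6.98 RPKM in the first pair, and in the second from 3.69 to 8.90 (limma adjusted p = 0.00676). The haem oxygenase gene Hmox1 and the haem A synthesis gene Cox10, named after their values were seen, rose by 0.95 and 0.99 on the log2 scale (limma adjusted p = 0.0158 and 0.0132). The same list also held Blvrb, for haem breakdown, and Cox15, for haem A synthesis. Blvrb fell (log2 change -0.75, limma adjusted p = 0.0161) and Cox15 was not called (-0.07, limma adjusted p = 0.736).

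Genes that supply the entry step and those of mitochondrial iron and iron-sulphur clusters were also called in both directions. Of 6 supply genes, 2 rose and 1 fell (22.2% and 10.2% of all tested genes), with a median log2 change of 0.21. The rises were those of the succinyl-CoA ligase subunit genes Suclg2 and Suclg1 (log2 changes 0.95 and 0.78, limma adjusted p = 0.0162 and 0.0174), the fall was that of Slc6a9, and Slc25a39 had a change of -0.49 without a call (limma adjusted p = 0.105). Of 17 iron and iron-sulphur genes, 2 fell, 2 rose and 13 were not called, against the same shares of all tested genes, with a median of -0.07; with median-ratio scaling 3 fell and 1 rose, the call of Fdx1 being lost. Slc25a37, the iron importer mitoferrin of red cell precursors, fell from 115 to 10.2 RPKM in the first pair, and in the second from 37.0 to 11.1 (log2 change -2.51, limma adjusted p = 0.0103). A230051G13Rik, an older symbol of the iron-sulphur assembly gene Iba57, fell by 1.68, while the chaperone gene Hspa9 and the ferredoxin gene Fdx1 rose by 0.80 and 0.65 (limma adjusted p = 0.00343, 0.00971 and 0.0438).

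Markers of red cells and megakaryocytes moved in the same libraries. Of 12 erythroid markers 11 fell and 0 rose, where 10.2% of all tested genes fell and 22.2% rose. Their median log2 change was -1.81, and the summed levels given above were highest in the same EtOH library of Runx1-delta/delta in which 7 of the 9 members peaked. The largest log2 changes were -3.93 for the globin gene Hbb-b1, -5.70 for the anion exchanger gene Slc4a1 and -5.79 for Add2 (limma adjusted p = 0.00176, 5.78e-04 and 5.78e-04). Smaller falls were called for Klf1 (-1.10), Gata1 (-0.69) and Tspo2 (-0.67). The globin gene Hba-a1 was the marker not called (-0.86, limma adjusted p = 0.0564). Of 7 megakaryocyte markers 4 could be tested and all 4 fell (Pf4, Gp5, Gp9 and Itga2b, median -2.13). Gp9 had 0.436 and 0.0939 RPKM in 4OHT (Runx1-delta/delta first) and reached the mean filter through EtOH, at 4.60 and 6.66 RPKM. With no filter on low values 3 of the 7 were called, all lower, with a median of -0.72, against 13.3% of all genes called in that fit. The summed levels of the 7 were 127 and 177 RPKM in EtOH and 59.2 and 53.9 RPKM in 4OHT. Of 7 progenitor and blast markers 3 could be tested; Myb and Cebpa rose by 1.82 and 1.96 (limma adjusted p = 0.0130 and 0.00704) and Flt3 was not called. None of the erythroid markers was at 0 in any library. The part of red cell content in the changes of the haem genes was not tested.

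**Figure D4:**
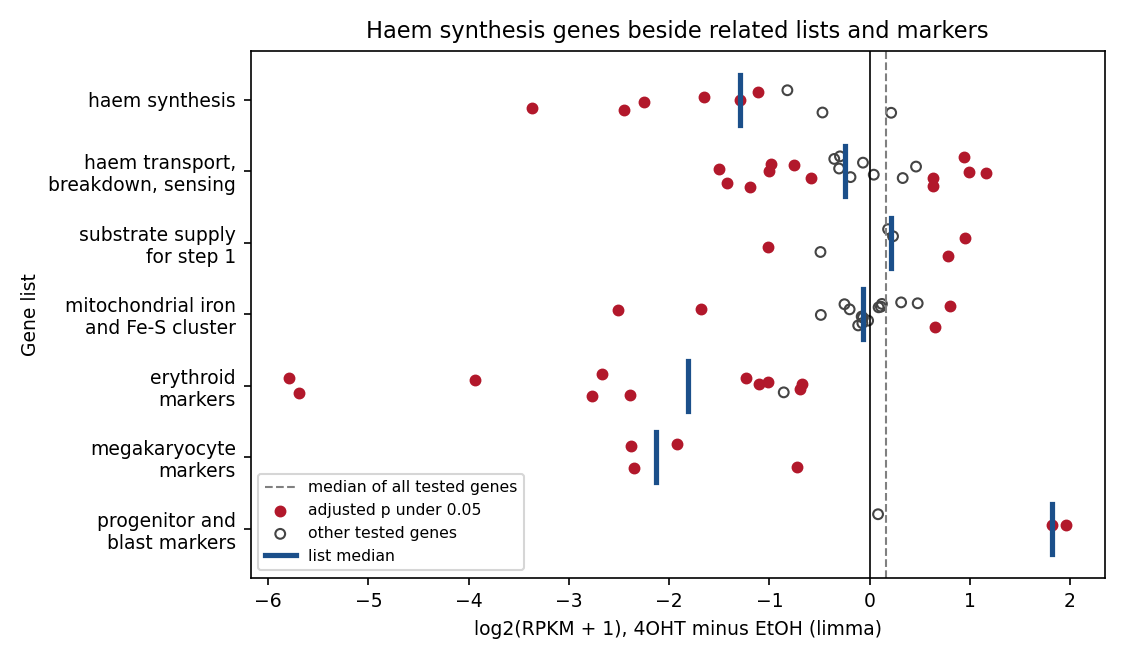
Change with 4OHT on the log2(RPKM + 1) scale (limma) for each tested gene of the haem synthesis members, 3 related lists and 3 marker lists, with filled points for an adjusted p under 0.05, blue bars for list medians and a dashed line at the median of all tested genes, 0.16. Haem synthesis genes (median -1.29) and erythroid markers (median -1.81) lie mostly to the left, while the lists of haem handling, substrate supply and mitochondrial iron lie on both sides of 0.

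Profiles over the 4 libraries were compared by Euclidean distance after centring each gene's log2(RPKM + 1). The candidates were 6856 genes whose mean reached 5 RPKM. The haem synthesis members and genes with clone-type names, such as those ending in Rik, were left out. Closest to Alas2 were St3gal2, Trfr2, Apol11b, Ypel4 and Gstt1 (distances 0.248, 0.310, 0.357, 0.500 and 0.605 log2 units). St3gal2, for example, had 19.9 RPKM under EtOH against 0.323 under 4OHT in Runx1-delta/delta cells, and 6.90 against 0.335 in the other genotype. Closest to Alas1 were Nudt6, Fes, Fdps, Nsf and Bbs12 (distances 0.116 to 0.156), all of them lowest in the EtOH library of Runx1-delta/delta. St3gal2, Trfr2, Apol11b and Ypel4 lay under 1 RPKM in both 4OHT libraries and reached the mean filter through EtOH. The added 1 RPKM therefore shrinks their changes. In plain RPKM, St3gal2 fell 61.6-fold and 20.6-fold and Trfr2 377-fold and 149-fold (Runx1-delta/delta first). The Trfr2 ratios are imprecise, since its 4OHT levels were 0.0465 and 0.0434 RPKM. In these libraries 1 read in a gene of 1 kb equals 0.0272 and 0.0254 RPKM. Alas2 fell 19.1-fold and 6.36-fold, and Gstt1 17.2-fold and 5.86-fold. With 4 libraries these likenesses are a description.

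Kal's Z-test in the authors' deposited table sets a single 4OHT library against its EtOH library. At its FDR under 0.05, it called 7 of the 9 members in replicate 1 (Runx1-delta/delta) and 4 in replicate 2 (Runx1-delta/+), all lower with 4OHT, against 3.98% and 1.91% of its rows in either direction. In the authors' deposited table, Alas2, Cpox, Ppox and Fech were called in both, Alad, Uros and Urod in replicate 1 only, and Alas1 and Slc25a38 in neither.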

How the data were processed

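RNA sequencing of 4 mouse libraries was used. Per the file headers, the authors deposited RPKM for each library, with replicates apart, and p-values and FDR-corrected p-values of Kal's Z-test. The submitters' processing notes name the build mm 9; the sources used here give no aligner, counter, annotation or strand setting. Per the labels' protocols, libraries were made with a TruSeq or a NEBNext kit, without naming the kit of each library.

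Library totals were recovered from the RPKM steps: whole reads (tolerance 0.02 reads) and a total shared by 244 of 1094 genes with 1 annotated transcript. The intervals cover the spread in the fit, not sampling of mice. limma 3.58.1 in R 4.3.3 was run on log2(RPKM + 1), a scale that understates changes of low genes, over all genes whose mean reached 1 RPKM. Treatment and genotype were terms, tests two-sided with a trended prior and a threshold of 0.05 on Benjamini-Hochberg adjusted p. Genotype equals replicate number; same-numbered libraries deviated together (correlation across genes 0.664). The fit had 1 residual and 4.37 prior degrees of freedom and was tested on simulated data. Members, gene lists and motifs were chosen with earlier results of these data known. Lists covered porphyrin and haem handling, substrate supply, mitochondrial iron, and markers of erythroid, megakaryocyte, neutrophil, monocyte, progenitor, B, T and NK cells. From each list the text names up to 4 tested genes by smallest p. It also names the 5 genes nearest in profile to Alas2 and to Alas1. Itgam, Pax5, Cd3e and all 7 progenitor and blast markers are named for their levels, whether tested or not. Hmox1, Cox10, Blvrb, Cox15, Hba-a1, Klf1, Gata1 and Tspo2 were named after their values were seen. Alternatives were another pseudocount (0.1), no filter, a mean of at least 5 RPKM, median-ratio scaling, no genotype term, and leaving out each library. Some marker genes are not reported here by name.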

Additional observations from a re-analysis of the deposited data

Results flagged for a closer look

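Alas1 moved in opposite directions in the 2 genotypes: the log2 difference, 4OHT minus EtOH, came to 0.61 for the Runx1-delta/delta pair and -0.18 for the Runx1-delta/+ pair. Among the marker genes named, Flt3 (0.39 and -0.22), Cd34 (0.39 and -0.09) and Elane (0.03 and -0.35) did the same. Lck did so with the signs the other way round (-1.13 and 0.14), as did Apex2, which overlaps Alas2 (-0.59 and 0.03). The 5 genes chosen for a profile like that of Alas1 shared its signs by that choice, with 0.71 and -0.08 for Nudt6, 0.71 and -0.27 for Fes, 0.64 and -0.0053 for Fdps, 0.42 and -0.18 for Nsf, and 0.63 and -0.09 for Bbs12. Each genotype had 1 pair of libraries, and these differences were not tested.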

How the results depend on the processing

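Changing the pseudocount to 0.1, dropping the filter on low values, raising it to a mean of 5 RPKM or scaling by median ratios left all 6 called members lower with 4OHT and called; with median-ratio scaling 7 members were called, Alad being added, and the median of all genes moved from 0.16 to -0.02. Over all genes that scaling called 1221 higher and 1325 lower, against 2130 and 983. Without the genotype term (no replicate block) the counts fell to 1 member, 233 of all tested genes and 6 genes of the related and marker lists. Between the genotypes the matching fit, without the treatment term, no longer called Cpox (0 members, and 0 of all tested genes in limma against 880 at an unadjusted p under 0.05). With no filter, 0 members and 0 of all genes were called between the genotypes in limma, against 3906 genes at an unadjusted p under 0.05. Leaving out each library in turn, which also drops the other term, left for 4OHT 1 member, 39 of all tested genes and 3 list genes without EtOH replicate 1 (Alas2 the member called, limma adjusted p = 0.0480). The counts were 3, 250 and 8 without 4OHT replicate 1, 3, 251 and 9 without EtOH replicate 2, and 2, 217 and 10 without 4OHT replicate 2. Between the genotypes 0 members were called in each case. The single library left in an arm is then assumed to vary like the other arm. Directions that turned in this way were those of Alas1 (-0.19 to 0.62) and Urod (-0.94 to 0.0049) for 4OHT. Between the genotypes they were those of Alas2 (-1.17 and -0.38, highest 2.99), Uros (-0.65 and -0.29, highest 1.36), Cpox (-0.48 and -0.29, highest 1.96), Ppox (-1.41 to 0.11), Fech (-0.98 and -0.69, highest 1.75) and Slc25a38 (-0.42 and -0.22, highest 0.89), where by construction the genotypes then differ in their share of 4OHT libraries.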
